A study of Mus musculus with 9 samples.

Results

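The genes of cholesterol synthesis, sterol sensing and cholesterol efflux, together with Ch25h, were followed across resting and inflammatory macrophages with and without photobiomodulation (PBM), which is irradiation of the cells with near-infrared laser light. The members were listed by symbol and matched through their Ensembl identifiers, and all 29 were found among the 55655 rows of each deposited table. They were 18 enzymes of sterol synthesis, 4 genes of the SREBP2 axis, 6 genes of the LXR axis and efflux, and the cholesterol 25-hydroxylase Ch25h. All cells were bone marrow-derived macrophages (BMDMs) of wild-type C57BL/6 mice aged 6 to 8 weeks, matured for 7 days in medium with 10 ng/mL of M-CSF, the growth factor that drives marrow precursors into macrophages. The M0 group received nothing further. The M1 group received LPS, a component of bacterial cell walls, together with the cytokine IFN-γ. The M1 + PBM group received the same stimuli and was irradiated with the laser, and RNA of the stimulated groups was collected at 12 hours. Each group had 3 RNA-seq libraries, numbered 1 to 3, and the comparison of M1 + PBM with M1 asked what the light changed in stimulated cells. BMDMs are grown in culture and contain neither the blood supply nor the other cells of a tissue.

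Cells make cholesterol from acetyl-CoA through the mevalonate pathway, squalene and lanosterol. When the endoplasmic reticulum is poor in sterol, the transcription factor SREBP2 is escorted to the Golgi by SCAP, cleaved there, and then switches on most genes of this pathway, while INSIG1 holds the complex back when sterol is plentiful. Oxysterols and sterol intermediates activate the nuclear receptors LXRα and LXRβ, which raise the cholesterol exporters ABCA1 and ABCG1. In macrophages Ch25h is a well-known target of interferon and LPS, and its product, 25-hydroxycholesterol, both restrains SREBP2 cleavage and can serve as an LXR ligand.

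Values are given in FPKM, which scales the fragments of a gene by its transcript length and by the size of the library, so levels of different genes are set side by side per length. The depth of the libraries is unknown, and 3 rows made up 30.9% to 37.8% of the FPKM of a library. All 6 macrophage markers examined, among them Csf1r and Cd68, reached an FPKM of 1 in every group and summed to between 4772 and 10084. The 6 markers of the LPS and IFN-γ response summed to between 13.6 and 87.0 in M0, with the highest sum in M0 replicate 3. They summed to between 2218 and 2445 in M1 and between 1399 and 1879.5 in M1 + PBM, and these sums did not overlap. Markers of dendritic, lymphoid and erythroid cells were under an FPKM of 1 in every library, and the 6 neutrophil markers summed to at most 27.97, with Ly6g and S100a9 at 0. The 12 hepatocyte markers summed to 20.2 in M1 replicate 2 and to between 0.761 and 3.61 in the other libraries, and albumin (Alb) was at 9.01 in M1 replicate 2 and at 0 elsewhere. The 5 stromal markers summed to between 5.33 and 179 in M0, with the highest sum in M0 replicate 3.

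The enzymes of sterol synthesis stood lower in M1 than in M0. The group mean was lower for 18 of 18 enzymes, where this was so for 72.6% of the 13915 rows that reached an FPKM of 1 in 3 or more of the 9 libraries. For 13 enzymes every M1 library was below every M0 library, which held for 50.6% of these rows. Tm7sf2 is among the 18 and the 13, but it reached the minimum only through M0, so the filter favoured its lower place in M1. The difference of group means on the log2(FPKM + 1) scale had a median of -0.99 over the enzymes and of -0.34 over all rows, and the enzymes ranged from -1.93 to -0.55. The M0 mean was between 1.46 times (Mvd) and 5.75 times (Dhcr7) the M1 mean. The M0 libraries stood in a table of their own, so these are levels side by side without a test, and a difference between the groups and one between the tables cannot be told apart. The RNA is of bulk cultures, in which fewer expressing cells and less RNA per cell cannot be told apart either. Because most genes were listed lower in M1, the values were also scaled by the median of ratios, which brought the median of all rows to -0.01. On that scale the enzymes were still lower in the mean in 18 of 18, with a median of -0.61, and 8 of them did not overlap, against 28.1% of all rows. Tm7sf2 is among these 8. Hmgcs1, Mvk, Fdps, Lss and Nsdhl were apart from M0 before scaling and overlapped after it.

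The early steps, from acetyl-CoA to the isoprenoid units, were examined first. Hmgcs1 (ENSMUSG00000093930), the HMG-CoA synthase that commits carbon to the pathway, had an FPKM of 18.6, 35.3 and 25.7 in M0 replicates 1 to 3. It had 8.28, 16.8 and 8.03 in M1 and 9.0, 15.2 and 7.27 in M1 + PBM. Every stimulated library was below every M0 library, with M1 replicate 2 close to M0 replicate 1, and the difference of M1 from M0 was -1.22, or -0.81 with overlap after scaling. Pmvk (ENSMUSG00000027952), the phosphomevalonate kinase, had 5.47, 6.54 and 8.28 in M0, 2.67, 3.17 and 2.05 in M1, and 2.84, 2.77 and 3.47 in M1 + PBM. Its M1 libraries were lower without overlap, by -1.09. Idi1 (ENSMUSG00000058258), the isomerase that makes the second isoprenoid unit, had 9.27, 12.3 and 12.8 in M0, 2.71, 6.11 and 1.74 in M1, and 2.67, 5.89 and 1.46 in M1 + PBM. The M1 libraries of Idi1 did not reach those of M0, the difference was -1.57, and replicate 2 stood well above the other stimulated libraries. Among the other early enzymes, Mvk was lower in M1 without overlap, and the groups overlapped for the thiolase Acat2 and the decarboxylase Mvd, whose M1 replicate 2 was at 17.7 and M0 replicate 1 at 10.9.

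The middle steps join isoprenoids to squalene and close the ring. Fdps (ENSMUSG00000059743), the farnesyl diphosphate synthase, had an FPKM of 11.5, 17.6 and 18.9 in M0, 5.14, 11.0 and 3.06 in M1, and 5.61, 10.3 and 4.04 in M1 + PBM. M1 was lower than M0 without overlap (-1.32), although M1 replicate 2 came close to M0 replicate 1, and with scaling the groups overlapped (-0.93). Sqle (ENSMUSG00000022351), the squalene epoxidase and a rate-limiting enzyme of the pathway, had 11.6, 13.0 and 18.6 in M0, 4.20, 8.46 and 2.26 in M1, and 4.06, 8.09 and 3.11 in M1 + PBM. All stimulated libraries of Sqle were below those of M0, and the difference of M1 from M0 was -1.48. Lss, the lanosterol synthase, was also lower without overlap (-0.91), and Fdft1, the squalene synthase, overlapped with M0. The values of Fdft1 are uncertain, since its annotation overlaps the abundant gene Ctsb on the opposite strand, with an FPKM of up to 2328, and the strand setting of the counting is not given in the sources used here.

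The late steps turn lanosterol into cholesterol. Cyp51 (ENSMUSG00000001467), the lanosterol demethylase, had an FPKM of 13.8, 22.1 and 21.4 in M0, 4.73, 10.1 and 3.75 in M1, and 3.96, 9.13 and 2.93 in M1 + PBM. Its groups were apart, and M1 differed from M0 by -1.56. Sc5d (ENSMUSG00000032018), a sterol desaturase, had 9.78, 16.6 and 14.4 in M0, 4.37, 7.15 and 2.73 in M1, and 3.44, 7.34 and 3.19 in M1 + PBM, a difference of -1.39 between M1 and M0 without overlap. Dhcr7 (ENSMUSG00000058454), the reductase of the last step, had 6.22, 9.92 and 7.10 in M0, 1.15, 2.26 and 0.63 in M1, and 1.63, 2.38 and 1.37 in M1 + PBM. This was the largest difference among the enzymes in M1 (-1.93), and the highest stimulated library was far below the lowest M0 library. Tm7sf2, Nsdhl and Ebp were lower in M1 without overlap, and Msmo1 and Hsd17b7 overlapped. Tm7sf2 was near an FPKM of 1 in M0 (1.67 ± 0.184, SD, n = 3 libraries) and below it in every stimulated library, so that it passed the minimum only through M0, and it overlaps Vps51 on the same strand. Cyp51 overlaps Akap9, which had an FPKM of at most 3.42.

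**Figure D1:**
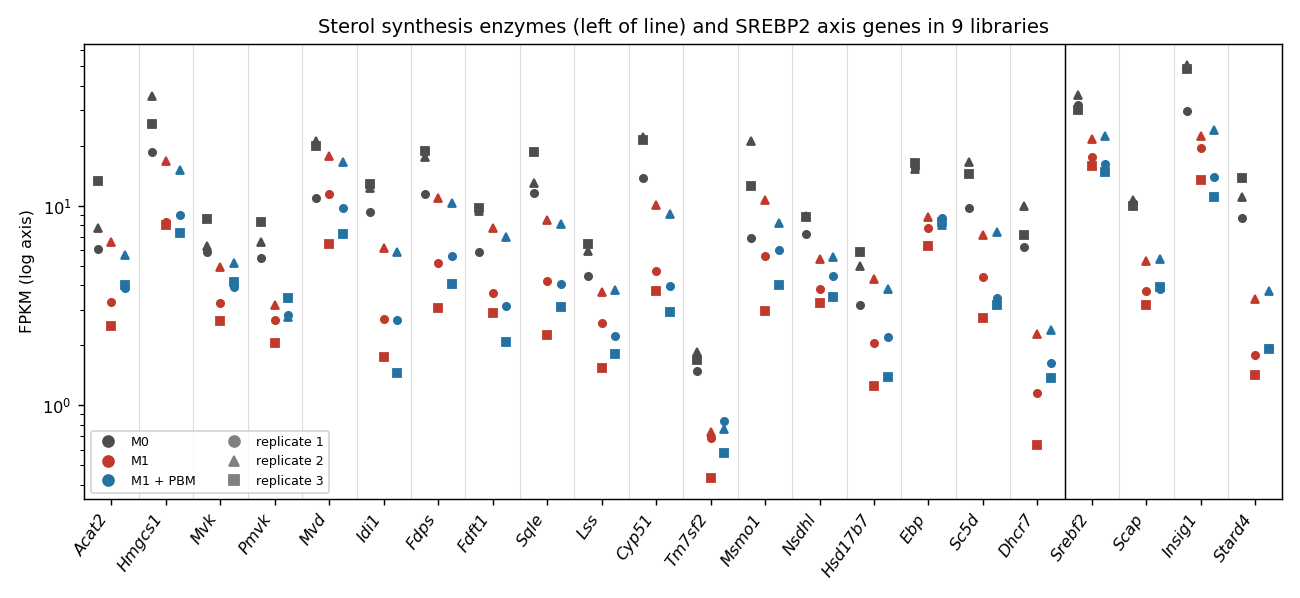
FPKM on a log axis for the 18 sterol synthesis enzymes and, right of the vertical line, the 4 genes of the SREBP2 axis, with 1 point per library; colours mark the group and shapes the replicate number. In M1 the replicate 2 triangle is the highest point for every enzyme, and the M0 points lie above all M1 points for 13 of the 18.

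The sterol sensors and a carrier stood lower in M1 as well, without overlap for 4 of 4 genes, where 50.6% of all rows were. Srebf2 (ENSMUSG00000022463), the gene of SREBP2, had an FPKM of 31.9, 35.8 and 30.1 in M0, 17.5, 21.6 and 15.8 in M1, and 16.1, 22.2 and 14.8 in M1 + PBM, with M1 lower by -0.81. Its escort Scap (ENSMUSG00000032485) had 10.3, 10.7 and 10.0 in M0, 3.72, 5.26 and 3.19 in M1, and 3.82, 5.40 and 3.89 in M1 + PBM (-1.18). The M0 libraries of Scap lay close together, and none of the stimulated libraries came near them. Insig1 (ENSMUSG00000045294), which is both the brake on SREBP2 and one of its targets, had 29.9, 50.9 and 48.6 in M0, 19.5, 22.3 and 13.5 in M1, and 14.0, 24.0 and 11.0 in M1 + PBM (-1.17). Stard4 (ENSMUSG00000024378), a sterol carrier of the cytosol, had 8.63, 11.1 and 13.7 in M0, 1.79, 3.42 and 1.42 in M1, and 1.93, 3.76 and 1.91 in M1 + PBM. Its difference of -1.95 was the lowest of all members. With median-of-ratios scaling these 4 genes remained below M0 without overlap in M1, against 28.1% of all rows, with a median of -0.78.

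Of all 29 members, 11 were lower in M1 without overlap and by at least 1 on the log2 scale. So were 13.7% of all rows. By this rule 3 (Nr1h3, Abca1 and Ch25h) were higher, which 7.81% were. Ch25h reached the minimum only through the stimulated libraries, so the filter favoured its higher place. With median-of-ratios scaling Pmvk (-0.74), Scap (-0.80) and Insig1 (-0.75) were under 1 in size, and Hmgcs1 and Fdps overlapped with M0. The other lower members and the 3 higher ones still met the rule. The share of all rows by this rule was not taken on that scale. In M1 + PBM the distance from M0 was of a like size. The mean was lower than in M0 for 18 of 18 enzymes, where 71.3% of all rows were, and 14 of the 18 did not overlap, against 46.2% of all rows. The median difference was -0.95 over the enzymes and -0.27 over all rows. With scaling it was -0.65, and 8 enzymes did not overlap, against 26.9% of all rows. Tm7sf2, which reached the minimum only through M0, is in each of these counts of enzymes. Insig1, Stard4, Scap and Srebf2 were again lower without overlap, by -1.38, -1.80, -1.09 and -0.86, and with scaling Insig1 overlapped. By the same rule 10 members were lower than M0, against 10.3% of all rows, and 3, Ch25h again among them, were higher, against 7.13%. With scaling Scap was at -0.78, and Hmgcs1 and Fdps overlapped, as Insig1 did.

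The 5' flanks of members with opposite levels are shown because the enzymes stood low together while Abca1 and Ch25h stood high in M1. RefSeq sequences on GRCm38.p6 reaching from 250 bases before to 50 after each gene start were matched by symbol for 24 of the 29 members, and Fdps, Fdft1, Sqle, Stard4 and Abcg1 were not matched. Both strands were searched for CCAAT, the NF-Y motif, for TCACNCCAC, a form of the sterol regulatory element, for CACGTG, the E-box, for the arms NGGTNA and NGGTCA with 4 bases between them, a direct repeat of the kind that LXR dimers read, and for GAAA repeated after 2 bases, an interferon-stimulated element. These letters were chosen after matches of several forms had been looked at. A gene was counted when any of its flanks held the motif, and shares are of all 27025 genes of the table. CCAAT stood in 14 of 15 enzymes and in 3 of 9 others (Srebf2, Insig1 and Mylip), and in 41.1% of all genes. TCACNCCAC was found in Hmgcs1 alone, with 1.44% of all genes, and the direct repeat in Abca1 alone, with 0.226%. CACGTG stood in 6 members, with 8.09% of all genes, and the interferon-stimulated element in Ebp alone, with 3.99%. The 250 bases before the start are printed for Hmgcs1 at chr13:119690101-119690350 (plus strand), Idi1 at chr13:8885356-8885605 (plus strand), Abca1 at chr4:53159896-53160145 (minus strand) and Ch25h at chr19:34475149-34475398 (minus strand). Capitals mark TCACCCCAC in Hmgcs1, at bases -137 to -129 from the start, ATTGG, which is CCAAT on the other strand, in Hmgcs1 and Idi1, and the E-box and the direct repeat in Abca1, the latter at -67 to -52 on the other strand. None of the 5 motifs was found in Ch25h.
Hmgcs1: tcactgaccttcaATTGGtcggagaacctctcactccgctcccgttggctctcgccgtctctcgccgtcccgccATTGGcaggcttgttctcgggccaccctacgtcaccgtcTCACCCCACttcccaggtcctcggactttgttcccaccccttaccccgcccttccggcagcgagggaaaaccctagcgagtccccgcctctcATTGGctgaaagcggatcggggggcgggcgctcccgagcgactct
Idi1: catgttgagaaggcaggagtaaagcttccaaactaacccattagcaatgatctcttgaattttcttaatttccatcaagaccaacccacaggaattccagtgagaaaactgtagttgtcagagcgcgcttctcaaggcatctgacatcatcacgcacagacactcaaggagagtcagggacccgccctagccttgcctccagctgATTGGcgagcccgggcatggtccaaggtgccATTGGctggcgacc
Abca1: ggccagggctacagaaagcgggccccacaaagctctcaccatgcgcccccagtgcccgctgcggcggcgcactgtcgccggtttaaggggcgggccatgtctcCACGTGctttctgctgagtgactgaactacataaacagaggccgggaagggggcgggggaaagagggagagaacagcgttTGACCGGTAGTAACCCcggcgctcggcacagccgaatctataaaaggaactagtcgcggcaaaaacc
Ch25h: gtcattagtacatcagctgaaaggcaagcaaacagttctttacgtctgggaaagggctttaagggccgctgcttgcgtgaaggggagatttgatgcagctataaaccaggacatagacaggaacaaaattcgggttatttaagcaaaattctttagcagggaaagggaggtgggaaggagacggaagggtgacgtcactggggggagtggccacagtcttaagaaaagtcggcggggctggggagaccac
A match is a stretch of letters and was not tested as a bound site, and these flanks are in another build than the mm9 of the submitters' processing notes.

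Within the stimulated groups the enzymes followed the replicate number. In M1, replicate 2 was the highest and replicate 3 the lowest library for 18 of 18 enzymes. Of the 12238 rows tested for PBM, 46.1% had their highest M1 value in replicate 2, 50.9% their lowest in replicate 3, and 35.4% both. In M1 + PBM replicate 2 was the highest library for 15 of the 18 enzymes, against 38.3% of all rows. It was highest in both groups for these 15 and for 4 of 4 genes of the SREBP2 axis, against 24.6%. The summed FPKM of the 18 enzymes shows the size of this spread. It was 153, 236 and 230.1 in M0 replicates 1 to 3, 77.4, 136 and 54.4 in M1, and 78.3, 125 and 63.8 in M1 + PBM. The group means were 207 ± 46.0, 89.1 ± 41.8 and 89.2 ± 32.2 (SD, n = 3 libraries each). Each M1 library was closest in this sum to the M1 + PBM library of the same number, and the libraries numbered 1 and 3 were nearer to each other than to those numbered 2. The hepatocyte markers summed to 20.2 in M1 replicate 2 and to 1.55 in M1 + PBM replicate 2, and their part in the enzyme levels was not tested.

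**Figure D2:**
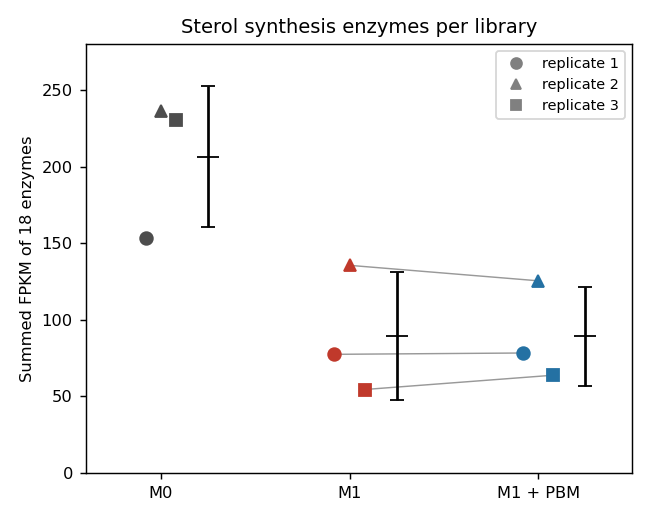
Summed FPKM of the 18 sterol synthesis enzymes in each library, with the group mean and SD beside the points and grey lines joining the stimulated libraries that share a number. The lines run nearly level, and the stimulated libraries, at 54.4 to 136, all lie below the M0 libraries, at 153 to 236.

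With PBM, 28 of the 29 members could be tested against M1, and 2 of them passed in limma at an unadjusted p of 0.05 or less, the significance level of the study's methods. Ch25h fell and Nr1h3 rose. Over all 12238 rows, 4.44% passed, 2.99% higher and 1.45% lower, so that the members' share of 7.14% rests on 2 genes. After Benjamini-Hochberg adjustment 0 members passed in limma, and of all rows 1 did (0.00817%). The M1 and M1 + PBM libraries were apart for Ch25h and Nr1h3 and overlapped for the other 27 members, where 11.0% of all rows tested did not overlap, 8.51% higher and 2.52% lower. Ch25h was the member that also differed by at least 1 on the log2 scale, as 0.261% of all rows did. With median-of-ratios scaling the calls among all rows went from 366 higher and 177 lower to 240 higher and 290 lower, and Ch25h was then the member that passed, where 2.37% of all rows were called lower. The M1 libraries enter both the difference from M0 and the difference with PBM, so the values are set side by side only.

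Ch25h (ENSMUSG00000050370), which hydroxylates cholesterol to 25-hydroxycholesterol, had an FPKM of 0.377, 0.126 and 6.29 in M0 replicates 1 to 3. It had 68.3, 22.4 and 91.4 in M1 and 18.7, 16.3 and 13.0 in M1 + PBM. The groups did not overlap in any pair. M0 was lowest, M1 + PBM lay between and its libraries were close together, and M1 was highest with replicate 2 well below the other M1 libraries. The group means were 2.26 ± 3.49, 60.7 ± 35.1 and 16.0 ± 2.82 (SD, n = 3 libraries each). On the log2 scale Ch25h fell by 1.66 with PBM (SE 0.49, 95% interval -2.85 to -0.47), with an unadjusted p of 0.014 and an adjusted p of 0.90 in limma. Since the M1 and M1 + PBM libraries did not overlap, it had to be lower in 3 of 3 replicates, and it was so by -1.82, -0.44 and -2.72. An exact permutation test over libraries gave p = 0.1, two-sided, the smallest value that 3 against 3 allows. Without M1 replicate 2 the difference was -2.25, and its call was lost under 1 alternative, the test without moderation of the variance (limma, unadjusted p = 0.056).

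The level of Ch25h was set beside other measured values, and it followed them only in part. Of the 6 LPS and IFN-γ markers, a list on which Ch25h does not stand, Nos2, Il6 and Il1b were lower in M1 + PBM than in M1 without overlap, while Cxcl10, Irf1 and Gbp2 overlapped. M0 replicate 3, the M0 library with the highest Ch25h, also had the highest sums of these markers and of the stromal markers in M0. M1 replicate 2, the M1 library with the lowest Ch25h, had a Nos2 level of 112 where the other M1 libraries had 290.0 and 284. Il6 and Cxcl10 were also lowest there, while Il1b (1077), Irf1 (65.5), Gbp2 (863) and the sum over the 6 markers were the highest in M1. In M1 + PBM, Ch25h was highest in replicate 1 and Nos2, Il6 and Il1b in replicate 2, and all of them were lowest in replicate 3. The part of these in the Ch25h values was not tested. The difference of M1 from M0 was 4.57 on the log2(FPKM + 1) scale and 5.42 without M0 replicate 3, and that of M1 + PBM from M0 was 2.91. For a gene near 0 in M0 this scale understates the change. Higher levels without overlap were found for 15.6% of all rows in M1 and 15.9% in M1 + PBM. Ch25h reached the minimum for these rows only through the stimulated libraries, so the filter favoured its higher place.

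Nr1h3 (ENSMUSG00000002108), the gene of LXRα, had an FPKM of 13.4, 27.8 and 20.0 in M0, 53.9, 67.5 and 58.7 in M1, and 87.5, 85.2 and 68.3 in M1 + PBM. The order was M0, M1 and M1 + PBM, and no libraries overlapped, although M1 replicate 2 and M1 + PBM replicate 3 differed by less than 1 FPKM. The group means were 20.4 ± 7.18, 60.0 ± 6.88 and 80.4 ± 10.5 (SD, n = 3 libraries each), and M1 differed from M0 by 1.56. With PBM Nr1h3 rose by 0.41 (SE 0.14, 95% interval 0.07 to 0.76, unadjusted p = 0.025, adjusted p = 0.90, limma). The change was 0.69, 0.33 and 0.22 in replicates 1 to 3, and the exact permutation p was 0.1. This call held in 9 of 16 settings, the main one included, and was lost with median-of-ratios scaling (0.34, limma, unadjusted p = 0.057) and without M1 replicate 1 (0.34), M1 replicate 3 (0.40), M1 + PBM replicate 1 (0.35) or M1 + PBM replicate 2 (0.37). It was also lost with the block and scaling together (0.34, limma, unadjusted p = 0.062) and without both libraries numbered 2 (0.45, limma, unadjusted p = 0.053), both added once the results were known. Nr1h2, the gene of LXRβ, did not pass (-0.25, interval -0.70 to 0.21), and its groups overlapped. It lay between 8.41 and 14.7 in all 9 libraries, and with scaling its M1 libraries were above those of M0, as for 28.9% of all rows.

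The exporters did not share a pattern. Abca1 (ENSMUSG00000015243), which loads cholesterol onto lipid-poor apolipoprotein, had an FPKM of 25.7, 30.9 and 29.6 in M0, 76.8, 69.1 and 62.2 in M1, and 74.8, 57.2 and 89.3 in M1 + PBM. Every stimulated library was above every M0 library, with M1 higher by 1.24 and M1 + PBM by 1.31. Between M1 and M1 + PBM the difference was 0.07 (interval -0.37 to 0.50), and -0.006 with scaling. Abcg1 (ENSMUSG00000024030), which exports cholesterol to mature HDL, had 50.1, 43.4 and 34.6 in M0, 21.9, 21.9 and 47.4 in M1, and 34.6, 19.7 and 70.0 in M1 + PBM. The Abcg1 groups overlapped throughout, and replicate 3 was the highest library in both stimulated groups. With PBM it differed by 0.35, with a 95% interval from -0.86 to 1.55 that spans both directions.

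Apoe and Mylip complete the LXR genes. Apoe (ENSMUSG00000002985), the apolipoprotein that macrophages secrete as an acceptor of cholesterol, had the highest FPKM of all members, 329, 639.6 and 573 in M0, 294, 237 and 469.8 in M1, and 373, 519 and 466 in M1 + PBM. M0 replicate 1 lay among the stimulated libraries, and M1 replicate 3 lay among those with PBM. The difference with PBM was 0.49 (SE 0.27, interval -0.16 to 1.13, limma, unadjusted p = 0.12), with 0.34, 1.13 and -0.01 in replicates 1 to 3. Without M1 replicate 3 it was 0.76 and passed in limma (unadjusted p = 0.0076), as 2.26% of all rows did in this direction. Mylip, the ubiquitin ligase that degrades lipoprotein receptors, lay between 8.45 and 16.2 in all 9 libraries, and its difference with PBM was 0.01 (interval -0.67 to 0.70).

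**Figure D3:**
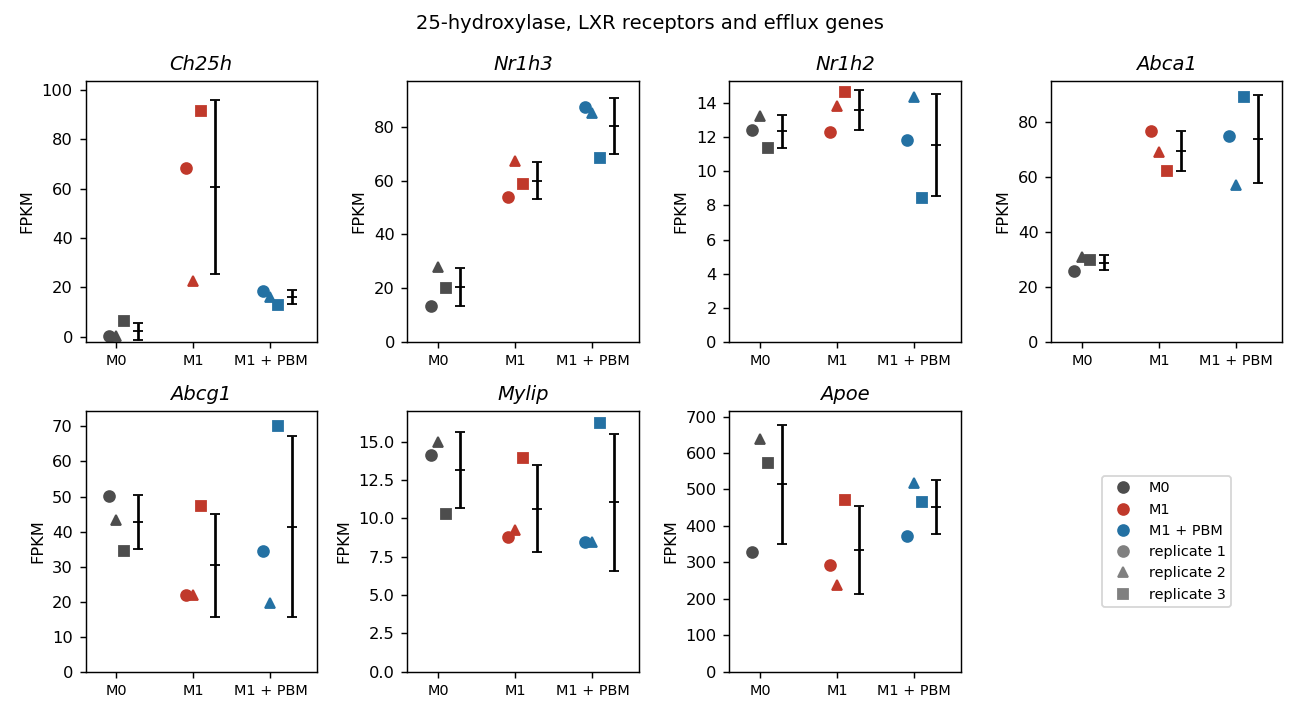
FPKM of Ch25h, the LXR receptors Nr1h3 and Nr1h2, and the LXR targets Abca1, Abcg1, Mylip and Apoe in each library, with group means and SD (n = 3) beside the points on linear axes. Ch25h and Nr1h3 are the panels in which the M1 and M1 + PBM points are apart, with Ch25h at 22.4 to 91.4 against 13.0 to 18.7.

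Among the enzymes, 17 were tested with PBM and 0 passed in limma, where 1.45% of all rows were called lower and 2.99% higher. Of these, 11 differences were positive and 6 negative, between -0.22 (Fdft1) and 0.29 (Dhcr7), with a median of 0.03 over the enzymes and of 0.06 over all rows. Of the 12238 rows tested, 8026 differences were positive and 4212 negative. Single libraries moved the enzyme median in both directions, to 0.27 when M1 replicate 2 was left out, 0.23 when M1 + PBM replicate 3 was, -0.25 when M1 replicate 3 was and -0.21 when M1 + PBM replicate 2 was. The standard errors ran from 0.13 to 0.47, and the 95% intervals of the enzymes lay between -1.27 and 1.20. The replicate number was also taken as a block, because same-numbered libraries deviated alike in these same data. The labels state no pairing. The block left standard errors of 0.08 to 0.16 and intervals between -0.45 and 0.63, and 0 enzymes passed (988 of all rows did, 8.07%, against 543 without the block). With this pairing assumed, a difference of 1 on the log2(FPKM + 1) scale was outside the blocked interval of every enzyme tested. Without the block it was inside some intervals, such as that of Idi1 (-1.21 to 1.07). For enzymes of low level, such as Dhcr7 with an M1 mean of 1.35, this scale understates a change in FPKM. Hmgcs1 shows the contrast. Its difference was -0.05, with an interval of -0.89 to 0.78 without the block and -0.29 to 0.19 with it, and Sqle had 0.08 with -1.0 to 1.16 and -0.22 to 0.38.

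The lowest p among the enzymes with the block were those of Cyp51 and Fdft1. Cyp51 differed by -0.21, -0.13 and -0.27 in replicates 1 to 3 (limma, blocked and unadjusted p = 0.058), and Fdft1 by -0.17, -0.14 and -0.35 (limma, blocked and unadjusted p = 0.064). Both were lower in 3 of 3 replicates, with differences smaller than the spread between libraries of 1 group. With the block and median-of-ratios scaling together, which was added once the results were known, they passed in limma, at -0.27 (Cyp51, unadjusted p = 0.030) and -0.27 (Fdft1, unadjusted p = 0.040), where 4.79% of all rows were called lower. Idi1 was also lower in 3 of 3 replicates, by -0.02, -0.05 and -0.16 (limma, blocked and unadjusted p = 0.43). Of the tested enzymes, in the other direction, Mvk, Dhcr7 and Nsdhl were higher in 3 of 3 replicates. The share of all rows with the same direction in 3 of 3 replicates was not taken, so these counts only describe the enzymes. Without M1 replicate 2, the library with hepatocyte markers, Mvk (0.45), Dhcr7 (0.56) and Acat2 (0.49) passed in limma, where calls rose to 1092 of 11991 rows and 6.4% of all rows were called higher. The SREBP2 axis had 0 of 4 genes past the threshold, with a median of 0.02. Srebf2 differed by -0.06 (interval -0.50 to 0.39), Insig1 by -0.21 (-0.94 to 0.53), Scap by 0.09 and Stard4 by 0.15.

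**Figure D4:**
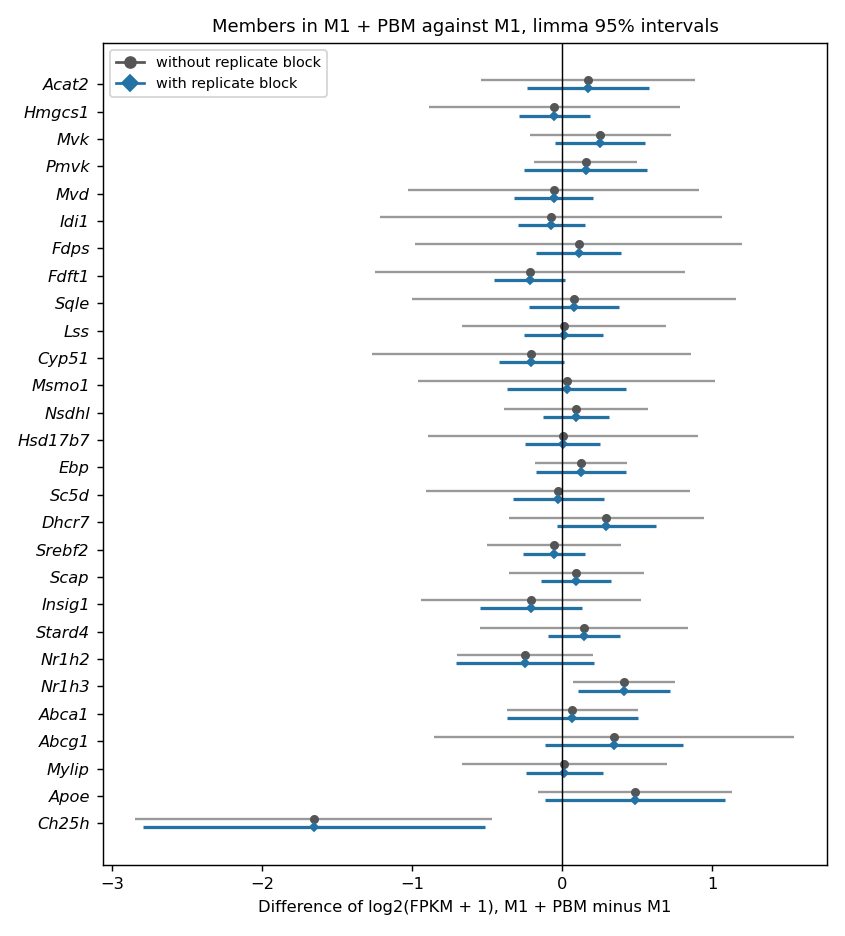
Difference of log2(FPKM + 1) between M1 + PBM and M1 for the 28 tested members, with 95% intervals from limma without (grey circles) and with (blue diamonds) the replicate number as a block. The intervals of Ch25h and Nr1h3 lie clear of 0 in both fits, and the block narrows those of most enzymes.

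The wider pathway was followed in 32 further genes of SREBP processing, cholesterol transport and storage, oxysterol metabolism and lipoproteins, of which 28 were tested with PBM. In limma 1 of them passed, higher, and 0 lower, a share of 3.57% beside the 4.44% of all rows (2.99% higher). Nceh1 (ENSMUSG00000027698), which frees cholesterol from its stored esters, had an FPKM of 74.9, 87.6 and 54.6 in M0, 17.9, 20.9 and 16.4 in M1, and 28.7, 21.8 and 27.7 in M1 + PBM. It rose by 0.47 with PBM (SE 0.15, interval 0.12 to 0.82, unadjusted p = 0.015, adjusted p = 0.90, limma), with replicate changes of 0.65, 0.06 and 0.72. The groups of Nceh1 did not overlap, and both stimulated groups were far below M0. Its call was lost without M1 + PBM replicate 1 (0.40, limma, unadjusted p = 0.059). With the replicate block Scd2, Pltp and Cyp27a1 also passed in limma, higher by 0.32, 0.53 and 0.31, where the block called 4.84% of all rows higher and 3.24% lower.

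Of the 32 genes, 11 were lower in M1 than in M0 without overlap and by at least 1, which 13.7% of all rows were, and 1 was higher, which 7.81% were. Nceh1 differed by -1.90. The others lower were Lipa (-2.58), the acid lipase of lysosomes, the esterifying enzyme Soat1 (-1.10), the receptors Scarb1 (-1.68) and Lrp1 (-1.90), the sterol transporter Osbpl8 (-1.32) and the lipoprotein lipase Lpl (-2.36). Scd1 (-1.42) and Scd2 (-2.50) desaturate fatty acids and are themselves SREBP targets. Scd1 was at -0.84 without M0 replicate 3, which had its highest level. Cyp27a1 (-2.41) makes 27-hydroxycholesterol, and Gpr183 (-1.94) is the receptor for an oxysterol that is made from the product of Ch25h. Gpr183 was near an FPKM of 1 in the stimulated groups, at 0.792, 0.944 and 1.09 in M1, so that it passed the minimum only through M0 and was not tested with PBM. Stard3, which moves cholesterol from late endosomes, was higher by 1.52. With median-of-ratios scaling Soat1 overlapped, and the other 11 kept their direction without overlap, where 28.1% of all rows were lower and 28.9% higher. Of these 11, Osbpl8 was then under 1 in size (-0.89).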

How the data were processed

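RNA-seq of 9 libraries was analysed, 3 each of M0, M1 and M1 + PBM, grouped and numbered by their labels. The authors deposited FPKM values in 2 tables of 55655 rows, 1 for M0 and 1 for the other 6 libraries. The paper's methods name Cufflinks for expression values, and the submitters' processing notes name Bowtie 0.12.2 and mm9. Of the rows, 320 carry MSTRG names, the form the assembler StringTie gives, and they held 0.325% to 0.522% of the summed FPKM. The kit is described as strand-specific, and the annotation and filters are not given in the sources used here. Among low values, 27.5% to 29.6% were whole multiples of 1 step (tolerance 0.05), chosen in each library as the step with the highest such share. An even spread gives 10% for a step fixed beforehand, so these shares cannot be read against it. No reads were recovered, no count test was run and depth is unknown. An FPKM depends on all other transcripts of its library, so abundant rows can move the values of others.

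For M1 + PBM against M1, limma 3.58.1 (R 4.3.3, lmFit, eBayes with trend) was run on log2(FPKM + 1) over the 12238 rows that reached an FPKM of 1 in 3 or more of the 6 libraries. A row passed at an unadjusted p of at most 0.05, and p-values were adjusted by Benjamini-Hochberg over all rows. M0 was in a separate table and entered no test. The scripts were tested on simulated data. No 2 libraries were duplicates. The paper states that the transcriptome experiment was repeated independently 3 times, without saying how the libraries relate to these repeats. The labels do not say whether libraries came from separate animals or cultures, so p-values measure the spread between these libraries. Deviations from the group means correlated between same-numbered M1 and M1 + PBM libraries (r across genes 0.157, 0.469 and 0.462). Between others r was -0.491 to 0.0328, but deviations within a group sum to 0, which pushes these values down. The numbers were taken as pairs on this ground, although the labels state no pairing. Alternatives were the replicate block, median-of-ratios scaling, a pseudocount of 0.1, a required mean FPKM of 5 or no requirement, eBayes without trend, no moderation, and leaving out each library. Added after seeing the data were the block with scaling, and leaving out both libraries numbered 2.

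The members and lists were chosen with earlier results of these data known. Values in every library are given for Srebf2, Insig1, Hmgcs1, Sqle, Abca1, Abcg1, Apoe and Ch25h, for members that passed with PBM, and for members apart in M0 and M1 by at least 1. Genes of the wider lists are named when past either of these last conditions, and Scd2, Cyp27a1 and Pltp were given with the block after their values were seen. Promoter sequences are from RefSeq (GRCm38.p6). Some genes of the pathway are not analysed here.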

Additional observations from a re-analysis of the deposited data

How the results depend on the processing

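The number of genes that passed in M1 + PBM against M1 was 543 and went to 1318 with no minimum FPKM, 233 at a mean FPKM of at least 5, 988 with the replicate block, 956 with the block and scaling, and 964 without the libraries numbered 2. Leaving out 1 library gave between 252 (without M1 + PBM replicate 1) and 1092 (without M1 replicate 2). More rows were tested with no minimum and fewer at the higher mean, and otherwise the cause was not tested. Of the members, 2 passed, and 1 did with median-of-ratios scaling, with no moderation and without the libraries numbered 2, and between 1 and 5 did when 1 library was left out. The replicate block, taken because same-numbered libraries deviated alike in these data, left Ch25h and Nr1h3 as the members that passed. With the block and scaling together Nr1h3 was lost and Ch25h, Cyp51 and Fdft1 passed. Over 16 settings Ch25h ranged from -2.27 to -1.26 (limma, adjusted p 0.31 to 0.995), Nr1h3 from 0.34 to 0.52 (adjusted p 0.532 to 0.995) and Nceh1 from 0.40 to 0.68 (adjusted p 0.498 to 0.995). The median of the enzymes moved by less than the spread between libraries, at -0.25 to 0.27 with PBM, -1.25 to -0.80 for M1 minus M0 and -1.14 to -0.79 for M1 + PBM minus M0 when 1 library was left out. With scaling it was -0.03, -0.61 and -0.65, and the median of M1 minus M0 was -0.99 before. Members that did not pass changed sign. With scaling, with and without the block, Lss was at -0.039, Msmo1 at -0.029, Hsd17b7 at -0.041, Abca1 at -0.0061 and Mylip at -0.056, and without the libraries numbered 2 Lss was at -0.0020. The ranges with 1 library left out spanned 0 for Acat2 -0.067 to 0.49, Hmgcs1 -0.33 to 0.27, Mvd -0.40 to 0.26, Idi1 -0.47 to 0.31, Fdps -0.25 to 0.53, Fdft1 -0.60 to 0.13, Sqle -0.29 to 0.48, Lss -0.22 to 0.22, Cyp51 -0.60 to 0.16, Msmo1 -0.35 to 0.43, Nsdhl -0.039 to 0.26, Hsd17b7 -0.28 to 0.34, Sc5d -0.34 to 0.26, Srebf2 -0.22 to 0.063, Scap -0.038 to 0.26, Insig1 -0.51 to 0.021, Stard4 -0.087 to 0.40, Abca1 -0.079 to 0.24, Abcg1 -0.12 to 0.77, Mylip -0.27 to 0.21. The cause of these changes of sign was not tested. Depth is unknown, so no limit of detection is given, and 3 libraries a group limit the precision.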
